A study of Homo sapiens with 4 samples.

Results

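The ELR CXC chemokine genes of chromosome 4 that encode the ligands of the neutrophil receptors were followed here in MDA-MB-231 cells treated with Rib_CA. The 6 genes, CXCL1, CXCL2, CXCL3, CXCL5, CXCL6 and CXCL8, were taken by symbol from the 20263 genes of the count table, and 4 of them had enough counts to be fitted. The set was put together with its rise in Rib_CA already known, so its Rib_CA to DMSO differences are given as a description, with no test. MDA-MB-231 is an established human triple-negative breast cancer line. All cells were grown in DMEM with serum. One group received Rib_CA for 24 h, named in the title as a derivative of the CDK4/6 inhibitor ribociclib, at a dose not given in the sources used here. The other received DMSO, the usual solvent of such compounds. Messenger RNA was sequenced from 2 libraries per group, all from 1 cell line, with 34774542 to 38865103 counts per library.

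ELR chemokines are small secreted proteins with a glutamate-leucine-arginine motif before their first cysteines. They attract neutrophils through the receptors CXCR1 and CXCR2, and they are known for promoting new blood vessels. Their genes arose by duplication, are typically silent until an inflammatory signal such as interleukin 1 or TNF activates NF-kB, and give short-lived mRNAs that carry AU-rich elements in their 3′ UTRs. In breast cancer lines of the basal type, CXCL8 is a well-known secreted product.

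The 6 genes lie in a span of 359 kb on chromosome 4 of GRCh38 (GENCODE release 29). From left to right these are CXCL8 (chr4:73740506-73743716, plus strand), CXCL6 (chr4:73836497-73849064, plus), CXCL1 (chr4:73869393-73871242, plus), CXCL5 (chr4:73995642-73998779, minus), CXCL3 (chr4:74036589-74038807, minus) and CXCL2 (chr4:74097035-74099293, minus). All are protein-coding genes, with coding sequences for 99 residues in CXCL8, 107 in each of CXCL1, CXCL2 and CXCL3, and 114 in CXCL5 and CXCL6. The pseudogene PPBPP1 lies within the limits of CXCL6 on the same strand, and no other annotated gene overlaps a member.

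The promoters are shown because a short word in them is shared by silent and active members. Each line gives the 150 bases before the RefSeq start of the gene (GRCh38.p14), 5′ to 3′ on the strand of the gene. Capitals mark GGAATTTCC, the core of a classical NF-kB site, and TGANTCA, the AP-1 element, which overlap in no member.
CXCL1 (chr4:73869243-73869392, plus): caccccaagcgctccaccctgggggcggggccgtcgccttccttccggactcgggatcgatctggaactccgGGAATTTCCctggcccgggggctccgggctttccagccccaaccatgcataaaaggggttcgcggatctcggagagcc
CXCL2 (chr4:74099196-74099345, minus): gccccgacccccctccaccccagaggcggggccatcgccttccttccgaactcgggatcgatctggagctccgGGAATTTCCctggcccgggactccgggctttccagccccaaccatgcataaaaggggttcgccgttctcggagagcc
CXCL3 (chr4:74038690-74038839, minus): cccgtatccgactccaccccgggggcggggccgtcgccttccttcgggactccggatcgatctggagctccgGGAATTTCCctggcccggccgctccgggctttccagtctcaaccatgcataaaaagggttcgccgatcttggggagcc
CXCL5 (chr4:73998678-73998827, minus): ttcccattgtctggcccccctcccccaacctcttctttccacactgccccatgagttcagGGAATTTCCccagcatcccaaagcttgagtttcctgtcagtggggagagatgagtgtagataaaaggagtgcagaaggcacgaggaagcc
CXCL6 (chr4:73836528-73836677, plus): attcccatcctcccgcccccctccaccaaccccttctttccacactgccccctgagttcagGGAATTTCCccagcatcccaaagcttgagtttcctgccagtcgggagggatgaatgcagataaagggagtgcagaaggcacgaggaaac
CXCL8 (chr4:73740419-73740568, plus): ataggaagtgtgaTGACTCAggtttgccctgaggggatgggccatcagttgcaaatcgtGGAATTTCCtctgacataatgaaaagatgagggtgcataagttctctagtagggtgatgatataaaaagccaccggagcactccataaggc

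GGAATTTCC was searched on both strands from 250 bases before to 50 after the start in the RefSeq promoter table, where all 6 members were found by symbol. All 6 held it, against 0.461% of 35116 promoters. The 6 are not independent hits, because the genes arose by duplication, and the difference from that share was not tested. The same word with 1 more G before it stood in all members but CXCL8 and in 0.145% of all promoters. The word began 77 to 91 bases before the start, on the gene's own strand in all 6. TGANTCA was found in CXCL8 only, from 137 to 131 bases before the start, and in 7.71% of all promoters. The ATF4 element TGATGNAA was in none of the 6 windows and in 3.62% of all promoters. The 150 bases of CXCL1, CXCL2 and CXCL3 were 86.1 to 88.7% identical to each other, and those of CXCL5 and CXCL6 were 89.4% identical. Pairs across these 2 groups, or with CXCL8, were 43.6 to 51.5% identical. Unrelated promoters were not aligned, so whether these values exceed theirs was not tested. The GENCODE limits of CXCL2, CXCL3, CXCL5, CXCL6 and CXCL8 reach 98, 118, 102, 181 and 63 bases beyond the RefSeq start, so the letters shown are upstream of the RefSeq start only.

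The 3′ UTRs were searched for motifs of AU-rich elements and were not aligned. The pentamer ATTTA, the core of AU-rich elements that mark mRNAs for decay, occurred 5 times in CXCL1, 10 in CXCL2, 7 in CXCL3, 11 in CXCL5, 6 in CXCL6 and 9 in CXCL8, in 3′ UTRs of 673 to 1995 bases. That is 5.36 per kb in CXCL6, the lowest of the 6, to 13.9 per kb in CXCL2. A density of at least that of CXCL6 was found in 7.17% of 13479 tested coding genes, whose median was 1.63 per kb. The nonamer TTATTTATT occurred 5 times in CXCL2, 3 times in CXCL1 and once each in CXCL3 and CXCL8. CXCL5 and CXCL6 had none, and 9.19% of the tested coding genes had at least 1. The 4 members with the nonamer are the 4 with counts in every library, but a link between the nonamer and the counts was not tested.

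CXCL8, CXCL2, CXCL1 and CXCL3 were far higher in Rib_CA than in DMSO, whereas CXCL5 and CXCL6 were at or near 0 in both groups. Levels are given in CPM, counts per 1000000 counts of the library after TMM scaling. In such bulk RNA, more RNA per cell and more cells with the RNA cannot be told apart. A count of 0 allows up to 3 counts, which is 0.0697 to 0.0911 CPM in these libraries, for counting error only.

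CXCL8, the strongest classical attractant of neutrophils among these ligands, lay at 6.83 and 12.97 CPM in DMSO 1 and 2 and at 378 and 151 CPM in Rib_CA 1 and 2. The 2 groups lay far apart, with Rib_CA 1 the higher of the treated libraries. Its fitted fold was 26.7 (log2 fold change 4.74 ± 0.58 SE; group means 9.90 ± 4.34 and 265 ± 160 CPM, SD, n = 2). It had the smallest SE of the 4.

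CXCL2, a ligand of CXCR2, lay at 1.96 and 3.19 CPM in DMSO 1 and 2 and at 166 and 31.5 CPM in Rib_CA 1 and 2. Rib_CA 1 was 5.28 times Rib_CA 2, so the treated libraries differed widely while both stayed above DMSO. Its fitted fold was 38.4 (log2 fold change 5.26 ± 0.84 SE; means 2.57 ± 0.868 and 98.8 ± 95.2 CPM).

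CXCL1, first described as a melanoma growth factor, lay at 1.70 and 3.46 CPM in DMSO and at 80.9 and 19.3 CPM in Rib_CA. The groups did not overlap, and again Rib_CA 1 was the higher. Its fitted fold was 19.4 (log2 fold change 4.28 ± 0.76 SE; means 2.58 ± 1.24 and 50.1 ± 43.5 CPM).

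CXCL3, a further ligand of CXCR2, lay at 1.24 and 3.61 CPM in DMSO and at 66.0 and 14.6 CPM in Rib_CA. DMSO 2 was 2.91 times DMSO 1, the widest gap between control libraries among the 4. Its fitted fold was 16.6 (log2 fold change 4.05 ± 0.85 SE; means 2.43 ± 1.68 and 40.3 ± 36.4 CPM).

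CXCL5 had 4 counts in Rib_CA 1 (0.102 CPM) and none in the other 3 libraries, and CXCL6 had none in any library. Both encode epithelial attractants of neutrophils. Neither passed the filter on low counts, and no fold is given for them. A signal from them was not detectable at this depth in DMSO or in Rib_CA 2.

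**Figure D1:**
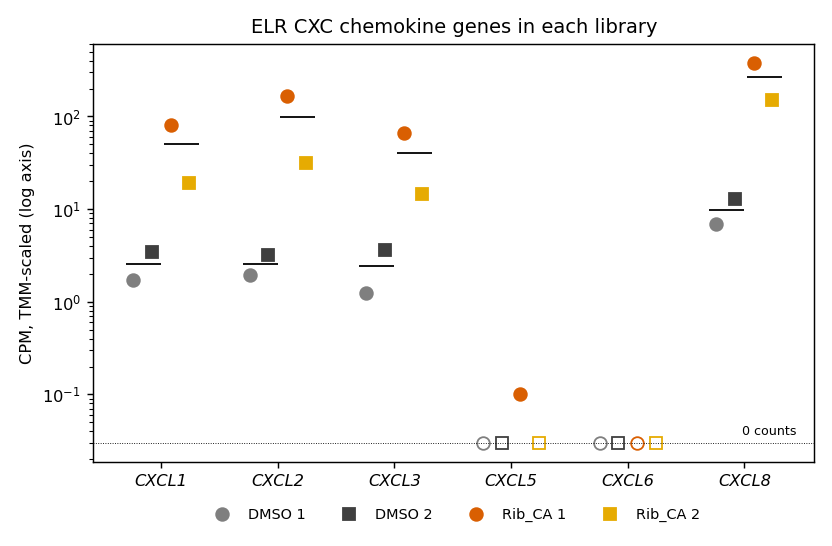
CPM (TMM-scaled, log axis) of each member in each library, with circles for replicate 1 and squares for replicate 2. Horizontal lines are group means, and open symbols on the dotted line are libraries with 0 counts. CXCL8, CXCL2, CXCL1 and CXCL3 have both Rib_CA libraries above both DMSO libraries, and Rib_CA 1 above Rib_CA 2 in each.

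Of the 6 members, 4 were called higher by edgeR at an adjusted p under 0.05 and none lower, beside 2.01% higher, 5.11% lower and 7.13% in either direction among the 13667 genes tested. Because the members were chosen on this contrast, nothing is read from that count. Both Rib_CA libraries lay above both DMSO libraries in these 4, as in 30.4% of the tested genes, and below them in none, as in 28.4%. By fold change the 4 ranked 14 (CXCL2), 17 (CXCL8), 24 (CXCL1) and 27 (CXCL3) among all genes tested. Together the 6 genes took 11.7 and 23.2 CPM in DMSO 1 and 2 and 691 and 217 CPM in Rib_CA 1 and 2.

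The size of the difference depended on the libraries. The ratio of the higher treated to the lower control library was 84.7 for CXCL2, 55.3 for CXCL8, 53.2 for CXCL3 and 47.6 for CXCL1. The ratio of the lower treated library to the higher control was 11.7 for CXCL8, 9.87 for CXCL2, 5.58 for CXCL1 and 4.03 for CXCL3. CXCL2 thus led by the first measure and CXCL8 by the second. Without Rib_CA 1 the fitted folds were 14.7 for CXCL8, 11.8 for CXCL2, 7.21 for CXCL1 and 5.76 for CXCL3. Without Rib_CA 2 they were 38.1, 64.4, 31.3 and 27.2. Without DMSO 1 they were 20.3, 30.9, 14.4 and 11.1, and without DMSO 2 they were 38.6, 50.2, 29.3 and 32.3. In the fits without DMSO 1 or without DMSO 2, 1 member was past the threshold, CXCL8, and without Rib_CA 1 the exception was CXCL3. Correction of each library for transcript GC content and length gave log2 fold changes of 5.22 for CXCL8, 5.14 for CXCL2 and 4.16 for CXCL1, with CXCL3 below CXCL1. In that edgeR fit 0 genes of the table passed, with 3380 genes at an unadjusted p under 0.05, while DESeq2 and limma-voom without this correction called 4 and 3 members.

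**Figure D2:**
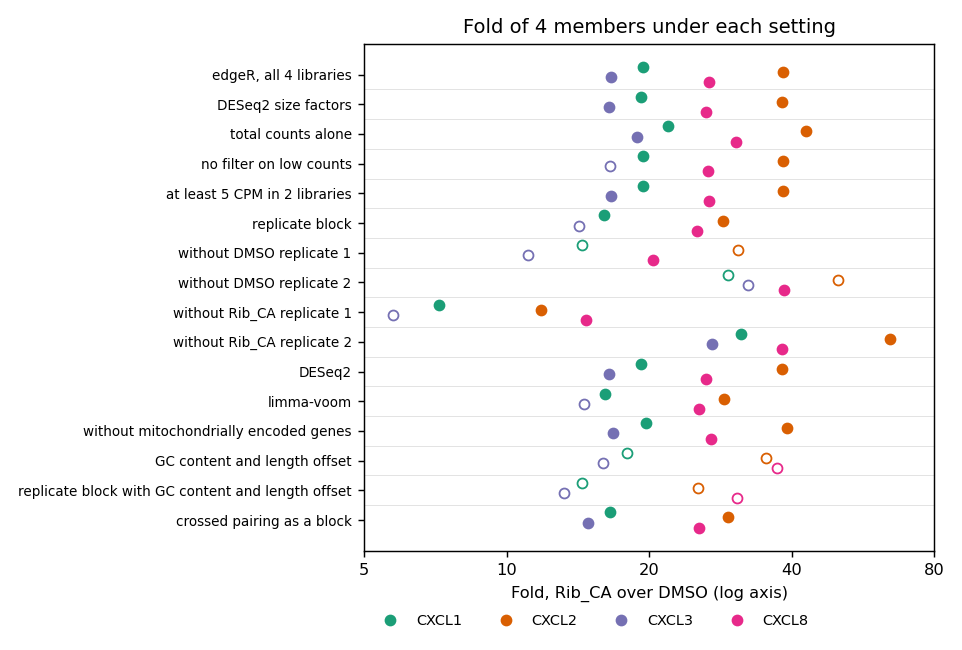
Fitted fold of Rib_CA over DMSO (log axis) for CXCL1, CXCL2, CXCL3 and CXCL8 under each setting tried, with filled symbols where the adjusted p was under 0.05 and open ones where it was not. Folds run from 5.76 for CXCL3 without Rib_CA replicate 1 to 64.4 for CXCL2 without Rib_CA replicate 2.

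Rib_CA 1 exceeded Rib_CA 2 by more in these genes than in most others. On log2(CPM + 0.5), Rib_CA 1 exceeded Rib_CA 2 by 2.38 for CXCL2, 2.14 for CXCL3, 2.04 for CXCL1 and 1.32 for CXCL8. A gap as high as that of CXCL8 was found in 2.60% of all tested genes and in 2.91% of the 275 genes called higher. For CXCL2 these shares were 0.490% and 0.364%. The median of this signed gap over the genes called higher was 0.00. Genes higher in Rib_CA 2 offset the others in that median, so it does not give the usual width of the gap. In DMSO, the 4 members were 1.63 (CXCL2) to 2.91 (CXCL3) times as high in DMSO 2 as in DMSO 1. DMSO 2 also had the largest share of mitochondrially encoded counts, 21.7% against 8.68% in DMSO 1, 5.79% in Rib_CA 1 and 3.13% in Rib_CA 2. The share was thus higher in both DMSO libraries than in either Rib_CA library. Without these genes in the table the fitted folds were 27.1 for CXCL8, 39.1 for CXCL2, 19.7 for CXCL1 and 16.8 for CXCL3.

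CXCL8 was the most abundant member per transcript length in every library. In CPM per kb of the longest coding transcript it lay at 4.01 and 7.60 in DMSO 1 and 2 and at 222 and 88.8 in Rib_CA 1 and 2. CXCL2 followed in Rib_CA with 136 and 25.8 CPM per kb, then CXCL1 with 73.8 and 17.6, then CXCL3 with 61.4 and 13.6. This order held in both treated libraries, but the ranges of neighbouring members overlapped between libraries, so no member is set apart from the next by more than the spread of its own 2 values. In DMSO, CXCL8 lay above the range of the other 3, whose order differed between libraries and whose values ran from 1.15 to 3.36 CPM per kb. As a share of the summed level per kb of the 6 genes, CXCL8 made up 48.2 and 45.4% in DMSO and 44.9 and 60.9% in Rib_CA. CXCL2 made up 19.3 and 15.6% in DMSO and 27.7 and 17.7% in Rib_CA. The groups overlapped in both shares. CXCL1 made up 18.6 and 18.9% in DMSO and 15.0 and 12.1% in Rib_CA, and CXCL3 13.9 and 20.1% in DMSO and 12.4 and 9.29% in Rib_CA. In these shares both treated libraries lay below both control libraries, as 28.4% of the tested genes did in CPM. Shares of a fixed total depend on each other, and this difference was not tested.

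CXCL1, CXCL2 and CXCL3 share stretches of sequence that can matter for counting. Of all windows of 50 bases in their longest coding transcripts, 5.73% in CXCL1, 9.24% in CXCL2 and 5.26% in CXCL3 also occurred in a transcript of another gene, always another of these 3. For windows of 100 bases the share was 0. CXCL8 and CXCL6 shared no window of 50 bases with another gene, and CXCL5 shared 1.13% with GLYR1. How reads that fit several genes were counted is not given in the sources used here, so the split of reads among CXCL1, CXCL2 and CXCL3 is uncertain to that extent.

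The receptors of these ligands were not detected. CXCR1 and CXCR2, which signal, and ACKR1, which binds the ligands without signalling, had 0 counts in all 4 libraries. Markers of leukocytes were at or near 0: the neutrophil genes CSF3R, FCGR3B, MPO and ELANE and the T cell gene CD3E had 0 counts, and the 10 leukocyte markers summed to 0.972 to 1.23 CPM per library. Markers of the basal breast line were present in all libraries (10 of 10 listed, VIM, CD44 and AXL among them, summed to 9850 to 13376 CPM), although SPARC had only 13 to 33 counts per library. The 8 listed luminal and receptor markers summed to 74.2 to 113 CPM per library, most of it from ERBB2 at 58.0 to 87.1 CPM, while EPCAM had 9.50 to 12.2 CPM, GATA3 3.04 to 21.7, FOXA1 0.488 to 7.35 and PGR 0.372 to 1.76. ESR1, CDH1 and TFF1 had at most 23 counts in any library.

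Other chemokine genes mostly had few counts or none, with CCL28 and CXCL16 the main exceptions. Of 11 further CXC chemokine genes, 6 had no count and 2 could be tested, of which none was called in either direction by edgeR, with 0 at an unadjusted p under 0.05 and 0 by DESeq2 and limma-voom. CXCL11, an interferon-induced attractant of T cells, had 0.115 and 0.486 CPM in DMSO and 0.613 and 1.35 CPM in Rib_CA (3.25-fold, log2 fold change 1.70 ± 0.86 SE; adjusted p = 0.247). Its fold was 8.29 without DMSO 2 and 2.04 without Rib_CA 2, and it was smaller still without DMSO 1 (adjusted p = 0.759). CXCL16, a transmembrane chemokine, lay at 2.42 and 5.44 CPM in DMSO and at 3.01 and 3.44 CPM in Rib_CA. In CPM it exceeded CXCL1, CXCL2 and CXCL3 in both DMSO libraries. In CPM per kb it lay below each of them, at 1.09 and 2.45 against at least 1.15 and 2.62 in DMSO 1 and 2. Its log2 fold change was -0.28 ± 0.51 (adjusted p = 0.760), and the value was 0.41 without DMSO 2. Of 27 CC, XC and CX3C chemokine genes, 15 had no count, 5 were tested and none was called by edgeR. DESeq2 called 0, but it gave no adjusted p for CCL20 and CCL24 and so could not call them. At an unadjusted p under 0.05 in edgeR there was 1, and limma-voom called 1. That gene was CCL20, another NF-kB-inducible chemokine. It had 0 counts in both DMSO libraries and 1.35 and 0.302 CPM in Rib_CA (adjusted p = 0.0562, and 0.0463 with total counts alone). CCL28, a mucosal chemokine, singled out after its values were seen, lay at 10.5 and 21.3 CPM in DMSO and at 11.9 and 29.6 CPM in Rib_CA. In CPM it exceeded CXCL8 in both DMSO libraries. In CPM per kb it lay below CXCL8 there, at 3.37 and 6.83 against 4.01 and 7.60 in DMSO 1 and 2. The groups of CCL28 overlapped (log2 fold change 0.38 ± 0.53 SE; adjusted p = 0.684). With it, the 27 genes summed to 11.8 and 23.7 CPM in DMSO, close to the sum of the 6 members there, and to 18.3 and 32.6 CPM in Rib_CA. The median log2 fold change of the 5 was 1.01, against 0.03 over all genes tested, and it stayed at 1.01 with CCL20 set over the floor. Of 20 other chemokine receptor genes 7 were tested and none was called by edgeR, DESeq2 or limma-voom, with 0 at an unadjusted p under 0.05. DESeq2 gave no adjusted p for at least ACKR4, CCR1 and CCR7, so it could not call these. The median log2 fold change of the 7 was -0.82.

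Among cytokines that induce ELR chemokines, with their receptors and adaptors, 2 of 19 tested genes rose and 1 fell. Of all genes tested, 2.01% rose and 5.11% fell. The median log2 fold change of the 19 was 0.22, against 0.03 over all genes tested. IL1B, the secreted form of interleukin 1, rose 25.8-fold from 1.87 and 2.31 CPM to 74.6 and 33.6 CPM (adjusted p = 0.0285; 15.6-fold without Rib_CA 1). IRAK2, a kinase of the interleukin 1 and Toll-like receptors, rose 5.90-fold (adjusted p = 0.0285; 3.90-fold without Rib_CA 1). TLR3, the receptor of double-stranded RNA, was 4.71-fold lower (adjusted p = 0.0383), but it did not pass without DMSO 1 or without DMSO 2, where it was 4.21-fold lower without DMSO 1 and 5.23-fold lower without DMSO 2. Nor did it pass with total counts alone (adjusted p = 0.0531) or with the GC and length correction, where it was 2.64-fold lower (adjusted p = 0.174). IL1A, the cell-bound form of interleukin 1, did not pass (adjusted p = 0.0605). It lay at 1.41 and 1.21 CPM in DMSO and at 56.6 and 4.34 CPM in Rib_CA, so that Rib_CA 1 stood far above Rib_CA 2, as for CXCL2. Without Rib_CA 1 its fold was 3.21, and without Rib_CA 2 it was 42.9. TNF had 8 counts in Rib_CA 1 and none elsewhere.

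Among genes of the NF-kB, AP-1 and C/EBP families, with the inhibitors and kinases of the NF-kB pathway, 5 of 23 tested genes rose, 1 fell, and the median log2 fold change was 0.67. Over all genes tested, 2.01% rose, 5.11% fell and the median was 0.03. C/EBP sites were not searched in the promoters. RELB and NFKB2, the subunits of the noncanonical NF-kB dimer, rose by log2 fold changes of 2.47 and 1.59 (adjusted p = 0.0285 and 0.0342). NFKBIE, an NF-kB inhibitor, rose 3.83-fold (adjusted p = 0.0293), and CEBPB rose 4.71-fold (adjusted p = 0.0285). With transcript GC content and length corrected for, CEBPB was 3.05-fold higher. NFKBIZ, a nuclear coactivator of NF-kB, rose 4.13-fold (adjusted p = 0.0456; 2.34-fold without Rib_CA 1), and REL, a canonical subunit, was 3.16-fold lower (adjusted p = 0.0432; 1.52-fold lower after the GC and length correction). NFKBIZ and REL were singled out after their values were seen. The number of the 23 called higher changed with the library left out, but such a fit takes its spread from the other group alone. NFKB2, NFKBIE, NFKBIZ and REL were no longer past the threshold without DMSO 1 or without DMSO 2, nor were RELB and CEBPB without DMSO 1.

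Other genes with the same promoter word were called in both directions. Besides the members, 77 genes of the table had GGAATTTCC in their RefSeq promoter, of which 57 were tested. Of these 3 rose, 5.26% against 2.01% of all genes tested, and 6 fell, 10.5% against 5.11%. The 3 that rose were ICAM1, NFKBIZ and ITPA, and the 6 that fell include REL. The median log2 fold change of the 57 was -0.11, against 0.03 over all genes tested. Among the members, CXCL5 and CXCL6 carry the word with the added G and had at most 4 counts in any library.

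A list drawn up for decay or stability of such mRNAs gave no call: 0 of 17 passed in edgeR or limma-voom. At an unadjusted p under 0.05 there were 3 higher and 2 lower, and DESeq2 called 2 higher and 2 lower. The median log2 fold change of the 17 was 0.34, against 0.03 over all genes tested. These figures include TNIP1, which is not a decay factor (2.19-fold higher, adjusted p = 0.0848) and was among those called higher by DESeq2. ZC3H12A, an endonuclease that cuts inflammatory mRNAs, lay just short of the threshold at 5.94 and 11.1 CPM in DMSO and 69.6 and 24.7 CPM in Rib_CA (5.54-fold; adjusted p = 0.0510). Its fold was 4.25 without DMSO 1, 7.91 without DMSO 2, 2.80 without Rib_CA 1 and 8.18 without Rib_CA 2.

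Among other secreted or surface factors that act on neutrophils, 3 of 13 tested genes rose and none fell. Of all genes tested, 2.01% rose and 5.11% fell. The median log2 fold change of the 13 was 1.89, against 0.03 over all genes tested, and 12 of the 13 values were above 0. IL6, a cytokine of acute inflammation, rose 12.9-fold, from 1.99 and 4.98 CPM to 66.7 and 22.9 CPM (adjusted p = 0.0319; 6.30-fold without Rib_CA 1 and 22.4-fold without DMSO 2). ICAM1, the endothelial and epithelial ligand of leukocyte integrins, rose 5.35-fold (adjusted p = 0.0285), with Rib_CA 2 at 289 CPM above Rib_CA 1 at 194 CPM. SAA1, an acute-phase protein, rose 12.3-fold (adjusted p = 0.0340) and was likewise higher in Rib_CA 2, at 10.85 against 4.65 CPM. Its fold was 22.2 without DMSO 2 and 7.37 without Rib_CA 2. ICAM1 and SAA1 lost their calls without DMSO 1. CSF2, the growth factor GM-CSF, singled out after its values were seen, lay at 1.04 and 2.19 CPM in DMSO and at 144 and 5.51 CPM in Rib_CA (adjusted p = 0.0663). Its fold was 3.29 without Rib_CA 1, 89.3 without Rib_CA 2 and 71.7 without DMSO 2, a wider gap between the treated libraries than in any member. CSF3, the growth factor of neutrophils, singled out likewise, had 136 counts in Rib_CA 1 and none elsewhere. The number of genes of this list called higher also changed with the library left out.

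**Figure D3:**
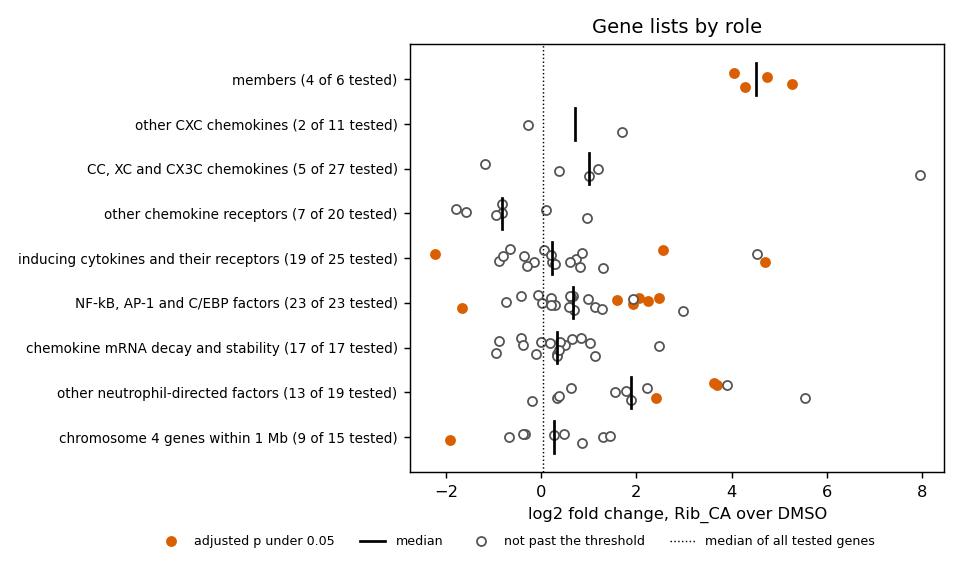
Log2 fold change of Rib_CA over DMSO for the tested genes of each list, with filled symbols where the adjusted p was under 0.05, a bar at each list's median and a dotted line at the median of all tested genes (0.03). The rightmost point among CC, XC and CX3C chemokines is CCL20, which had 0 counts in DMSO, so its fitted value is not a measured fold. The 4 tested members lie between 4.05 and 5.26.

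Neighbouring genes on chromosome 4 had smaller differences than the tested members. Of 15 other genes of the table within 1 Mb of the members, 9 were tested, none rose and 1 fell in edgeR, with 2 higher and 1 lower at an unadjusted p under 0.05, 2 higher and 1 lower by DESeq2, and 0 higher and 1 lower by limma-voom. Their median log2 fold change was 0.28, against 0.03 over all genes tested, of which edgeR called 2.01% higher and 5.11% lower. The platelet chemokine genes PF4, PF4V1 and PPBP, which lie between the members, had at most 4 counts in any library. EREG and AREG, ligands of the EGF receptor to the right of CXCL2, had log2 fold changes of 1.30 ± 0.45 and 1.46 ± 0.56 (adjusted p = 0.121 and 0.148). Both were higher in Rib_CA 1 (84.6 and 69.6 CPM) than in Rib_CA 2 (34.0 and 21.2 CPM). Without Rib_CA 1 their folds were 1.37 and 1.24, against 2.46 and 2.74 with all libraries. Without Rib_CA 2 the log2 fold changes were 1.81 and 2.07. With the GC and length correction the fold of EREG was 4.29. MTHFD2L, the nearest tested gene to CXCL2, had 231 to 359 counts in DMSO and 225 to 319 in Rib_CA. ANKRD17, to the left of CXCL8, was 3.78-fold lower (adjusted p = 0.0285), and it was 3.25- to 4.65-fold lower with each library left out. With the GC and length correction it was 2.10-fold lower and did not pass (adjusted p = 0.102), nor did it with that correction and the replicate block (2.12-fold lower; adjusted p = 0.119).

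**Figure D4:**
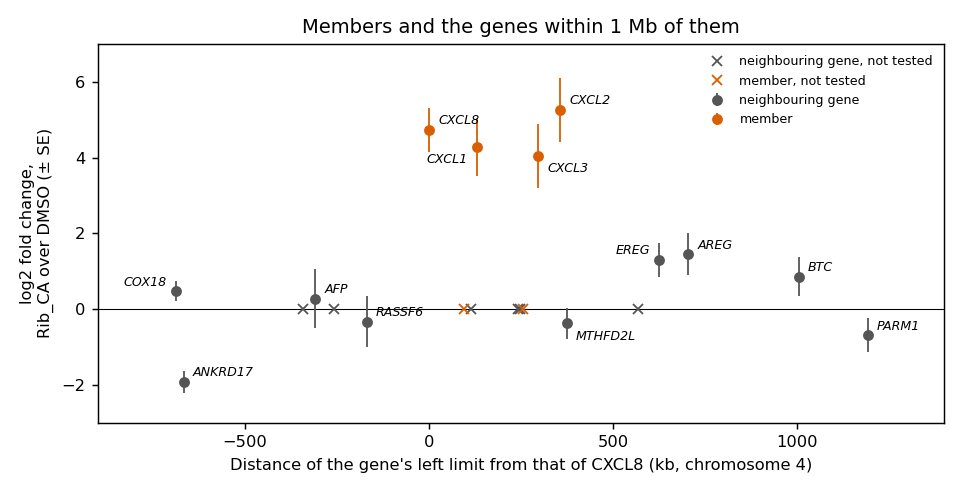
Log2 fold change of Rib_CA over DMSO (± SE) of the members and of the genes within 1 Mb of them, by the distance of each gene's left limit from that of CXCL8 in kb. Crosses on the zero line are genes with too few counts to test. The 4 tested members lie above 4, and no tested neighbour lies above 1.46.

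The genes nearest to the members in pattern over the 4 libraries, whatever their level, were PTGS2, IL6 and IL1B among those with a symbol. Nearness was the root mean square distance, over the 4 libraries, between a gene's log2 CPM less its mean and the same for the average of CXCL1, CXCL2, CXCL3 and CXCL8, among the 12469 genes that averaged 1 CPM or more. PTGS2, the inducible prostaglandin synthase, lay at a distance of 0.25, closer than CXCL2, CXCL3 and CXCL8 were to their own average (0.29 to 0.31). PTGS2 lay at 5.48 and 10.8 CPM in DMSO and at 229 and 92.7 CPM in Rib_CA. IL6 (0.40) and IL1B (0.41) followed ENSG00000167807 (0.39), a gene without a symbol in the name table. The next were the glutathione-degrading enzyme gene CHAC1 (0.66), C11orf96 (0.66), C15orf48 (0.74), the cytokine genes IL24 (0.77) and IL1A (0.84), and SESN2 (0.84), which restrains mTORC1. IL24 and IL1A had the largest gap between the treated libraries among the 10, with IL24 at 16.9 CPM in Rib_CA 1 and 1.32 CPM in Rib_CA 2. The 4 libraries fall into 2 groups, so these distances include the difference between the groups.

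**Figure D5:**
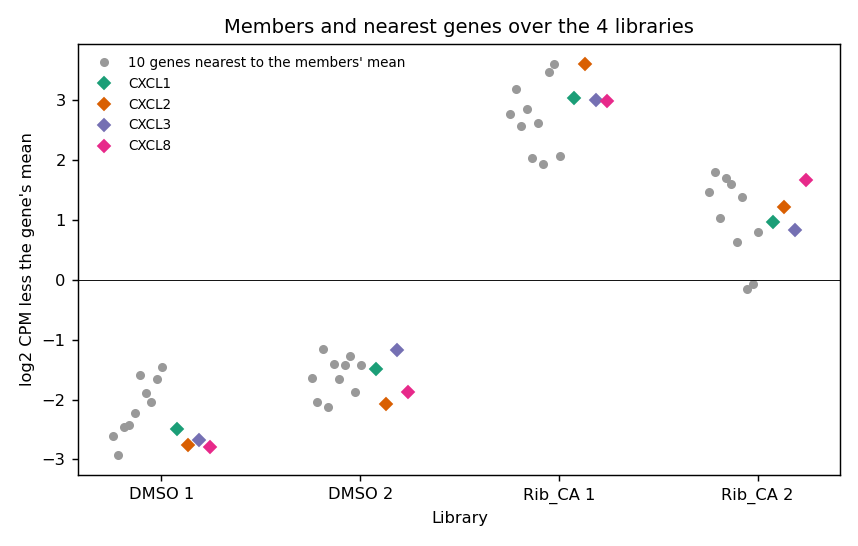
Log2 CPM less the gene's mean in each of the 4 libraries, for the 4 tested members (diamonds) and the 10 genes nearest to their average (grey circles). Members lie at -2.79 to -2.50 in DMSO 1 and at 2.99 to 3.61 in Rib_CA 1, and closer to 0 in DMSO 2 and Rib_CA 2.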

How the data were processed

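The authors deposited 1 table of raw counts per gene for the 4 libraries, without normalisation. Its rows carry human Ensembl gene IDs, yet GRCm38 and mm10, both mouse builds, stand in the submitters' processing notes. Aligner, counting tool, strand setting and read length: not given in the sources used here. Symbols were found for 20148 of 20263 IDs, and gene limits, transcripts and 3′ UTRs came from GENCODE release 29 (GRCh38). Promoters came from RefSeq (GRCh38.p14). Proteins were not used here.

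Even numbers made up 69.1% (Rib_CA) and 70.7% (DMSO) of the counts between 1 and 10, so counts may not be independent molecules and limits drawn from them cover counting error only. Whether replicates came from separate cultures is not in the labels. The p-values then reflect the spread of these libraries alone, and that spread may be technical. Over genes, the 2 libraries of a group differed far beyond counting noise (chi-square over its degrees of freedom 257 in DMSO and 265 in Rib_CA). With 2 libraries per group an exact two-sided permutation test cannot go below 0.333.

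The test of the counts was that of edgeR 4.0.16 under R 4.3.3 (filterByExpr with minimum count 10 and total 15, TMM, robust quasi-likelihood test, residual df 2). Benjamini-Hochberg adjustment ran over 13667 genes, with a threshold of 0.05. The SE is the absolute log2 fold change over the root of F. Log2 CPM used a prior count of 2. Alternatives were other size factors, filters, DESeq2 1.42.0, limma-voom (limma 3.58.1), a replicate block, a GC content and length offset (mgcv 1.9.3), no mitochondrially encoded genes and each library left out. In a fit with a library left out, the spread between replicates came from the other group alone. Calls of such a fit do not measure the spread of the reduced group. The members, lists and alternatives were chosen with earlier results of these data known. Named were the members, up to 4 genes per list and 6 neighbours with the smallest p, and the 10 genes nearest to the members. CSF2, CSF3, TNF, CCL28, NFKBIZ, REL, ITPA, MTHFD2L, PF4, PF4V1 and PPBP were named outside that rule, after their values were seen. Promoters were aligned with Biopython 1.88.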

Additional observations from a re-analysis of the deposited data

How the results depend on the processing

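The 4 tested members were higher in Rib_CA under all 15 alternatives, with folds from 5.76 to 64.4, and 56 of their 60 values moved by less than the spread between replicates. The other 4 are those without Rib_CA 1. The number of members called was 4, and it was 1 to 4 with 1 library left out, 0 with the GC content and length offset and 0 with that offset and the replicate block. CXCL3 also lost its call with no filter on low counts, with limma-voom and with the replicate block alone.

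Over all genes 275 were called higher and 699 lower. Higher calls numbered 448 with no filter, 418 with at least 5 CPM in 2 libraries, 1043 with DESeq2 and 36 to 1234 with 1 library left out. Lower calls numbered 328 with total counts alone, 1514 with DESeq2 and 137 to 1634 with 1 library left out. With total counts alone the median over all genes shifted by 0.20 (log2), and 44.2% of calls were higher in place of 28.2%; with DESeq2 the share was 40.8%. With the GC content and length offset there were 0 of each (3380 at an unadjusted p under 0.05), and with that offset and the replicate block 83 higher and 84 lower. The cause was not tested.

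The replicate numbers are not said to pair the libraries. The deviations of DMSO 1 and Rib_CA 1 correlated at -0.19 over genes, and the replicate block gave 260 higher and 687 lower calls. A crossed pairing, chosen after seeing the data, gave 724 and 1267.

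Of 42 other named genes, 4 turned direction in log2 fold change, none of them called: CXCL16 (-0.76 to 0.41 with 1 library left out), CCR7 (-1.38 to 0.12), and, with the GC content and length offset, the decay factor genes RC3H1 (0.098, and 0.095 with the block) and RC3H2 (0.066, and 0.069 with the block). That offset ended the calls of all 19 called among the 42. By Pearson's r in place of the distance, 0 of the 10 nearest genes were the same.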
